A study of Mus musculus with 6 samples.

Results

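The genes described here are the matrix metalloproteinases (MMPs), the ADAM and ADAMTS proteases, the ADAMTS-like glycoproteins and the tissue inhibitors of metalloproteinases (TIMPs), as expressed in the mouse aorta with and without Prdm16 in smooth muscle cells. They were chosen by symbol alone, as every protein-coding gene of the count table named Mmp, Adam, Adamts, Adamtsl or Timp followed by its number. The rule found 84 genes of 55487, made up of 34 ADAMs, 22 MMPs, 19 ADAMTSs, 5 ADAMTS-like genes and 4 TIMPs. Mmp1a is not among them, because the table lists it as a polymorphic pseudogene.

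Aortas of 3 control mice and 3 Prdm16 iSM KO mice, all male, gave the RNA, at baseline, without arterial injury. Both groups carried the Myh11-CreERT2 transgene, whose Cre recombinase is expressed from a smooth muscle promoter and works only after tamoxifen. The iSM KO mice had 2 floxed Prdm16 alleles, so that exon 9 was cut out in smooth muscle cells, while the controls had the wild-type allele. All mice received tamoxifen from 8 weeks of age, at 1 mg per mouse and day for 10 days, and aortas were taken after a washout of 2 weeks and 60 further days. The transgene lies on the Y chromosome, which limits the model to males, and any endothelial cells, fibroblasts, fat and blood cells left after removal of the adventitia kept their Prdm16 alleles.

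MMPs, ADAMs and ADAMTSs are zinc-dependent proteases made as inactive precursors. MMPs cleave collagens, elastin and other matrix proteins, ADAMs mainly release membrane proteins from the cell surface, and ADAMTSs trim procollagens, cleave the large proteoglycans of the vessel wall or bind fibrillin microfibrils. ADAMTS-like proteins share the matrix-binding domains of the ADAMTSs but have no protease domain, and TIMPs block the active site of the proteases. In the aorta the balance of these enzymes and inhibitors is known for its part in wall remodelling, aneurysm and atherosclerosis.

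Libraries held 24911609 to 40460467 estimated counts, of which the 84 genes took 0.274% to 0.359%. Control 3 had the smallest total, and its low counts were the least precise. It also had the lowest share of counts in protein-coding genes, 59.0%, against 64.6% to 67.6% in the other libraries. Smooth muscle genes were abundant in every library, with 10 markers such as Myh11 and Acta2 summing to 25800 to 30400 CPM (counts scaled to library size) in controls against 27500 to 30300 CPM in iSM KO aortas. Of these 10 markers, Des (log2 fold change 1.235, FDR = 0.00381) and Myocd (0.65, FDR = 0.0109) rose. In edgeR 0 fell, and the median log2 fold change of the list was 0.19. Prdm16 itself stood at 183, 223 and 178.5 CPM in controls 1 to 3 against 93.75, 112.7 and 79.8 CPM in iSM KO aortas 1 to 3 (log2 fold change -1.03, SE 0.14, FDR = 0.00265). No 2 libraries agreed within sampling noise. Here and below, CPM is scaled by the TMM method, log2 fold changes are iSM KO over control from edgeR's quasi-likelihood test, and the FDR is the Benjamini-Hochberg adjusted p-value over all 16565 genes tested.

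Of the 84 genes, 48 passed the filter on low counts and were tested, including every ADAMTS-like gene and every TIMP. The other 36 were 22 ADAMs, 9 MMPs and 5 ADAMTSs with at most 24 counts in any library. Of these, 16 had no count in any library, which allows up to 0.0741 to 0.12 CPM per library, counting error only. Among them were ADAMs best known from the testis, such as Adam2, Adam3 and Adam18. None of the collagenases Mmp1b, Mmp8 and Mmp13 was tested, Mmp13 having 20 counts at most. At the edge of the filter, the lowest count in the better-covered group was 9 for Adam8 and 8 for Adam32 and Adam5, just outside, and 16 for Mmp12 and 19 for Mmp9, just inside.

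Levels between genes were compared as CPM per kb of the longest protein-coding transcript. Inhibitors led the order. Timp3, which binds the matrix and inhibits ADAM17 and several ADAMTSs as well as MMPs, averaged 213 CPM per kb in controls (190 to 238 over 3 libraries) and 240 in iSM KO aortas (227 to 247). Timp2, which inhibits MMPs and also helps to activate pro-MMP2, followed with 122 (106 to 136) and 153 (147 to 161). Adamts1, a proteoglycan-cleaving enzyme, was the highest protease at 56.5 (50.2 to 62.4) in controls and 67.3 (58.7 to 72.8) in iSM KO aortas. Its range in controls overlapped that of Adamtsl5, a fibrillin-binding glycoprotein at 47.3 (41.4 to 54.3), which overlapped that of Adam15 at 36.9 (31.9 to 42.9). The levels then ran down to 0.1 CPM per kb for Adamts17. In controls the ranges of 6 of the 47 neighbouring pairs in this order did not overlap, and those of the other 41 did. The genes of a pair were not compared within each library, so an overlap does not show equal levels. On the opposite strand, Syn3 shares 21.28% of the exon bases of Timp3, and 4731419I09Rik 20.55% of those of Adam15. Whether strand was used in the counts is not given, so reads from the shared parts may enter these levels.

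**Figure D1:**
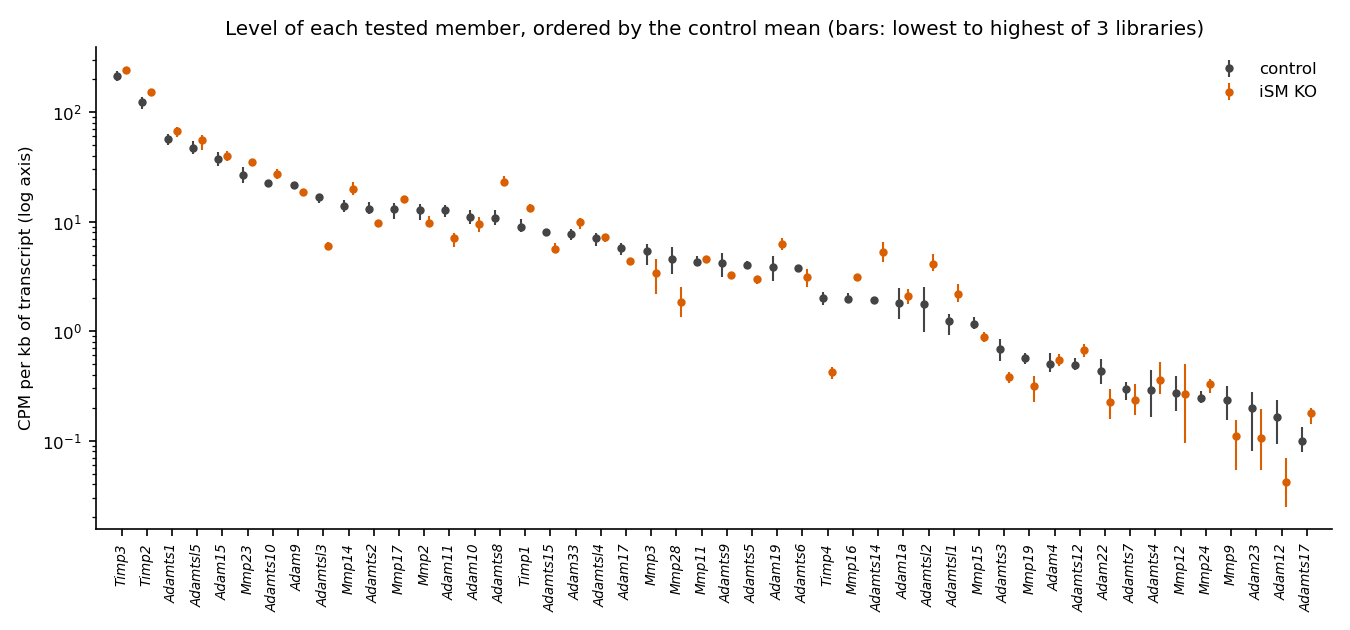
Level of each of the 48 tested genes in CPM per kb of transcript on a log axis, as the mean of 3 control and 3 iSM KO libraries with bars from the lowest to the highest library. Timp3 and Timp2 lead in both groups at 213 and 122 CPM per kb in controls, and Timp4, Adamtsl3, Adamts14, Adamts8 and Adam12 are among the genes whose bars do not overlap between the groups.

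Loss of Prdm16 in smooth muscle went with changes in both directions across the families. At an FDR under 0.05, 16 of the 48 tested genes changed (33.3%), against 7.56% of all genes tested. Of these, 8 rose, where 4.26% of all genes did, and 8 fell, where 3.30% did. With a fold change over 2 as well, 7 genes changed, against 2.78% of all genes. Adamts14, Adamtsl2 and Adamts8 rose by this rule (1.40% of all genes), and Timp4, Adam12, Adamtsl3 and Mmp28 fell (1.38%). Of these, Adam12 passed the filter on low counts only through the controls, the group where it is high. The CPM of the groups did not overlap for 30 of the 48 genes, 15 higher and 15 lower (62.5%, against 27.9% of all genes). The median log2 fold change was 0.05, next to -0.014 over all genes tested, so that the 48 genes as a whole leaned to neither side. In bulk RNA a lower value can mean fewer cells of a type or less RNA per cell, which cannot be told apart.

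By family, 2 of 14 ADAMTSs rose and 3 fell (median log2 fold change -0.021), 2 of 5 ADAMTS-like genes rose and 1 fell (0.24), 2 of 13 MMPs rose and 1 fell (-0.068), 1 of 12 ADAMs rose and 2 fell (-0.21), and 1 of 4 TIMPs rose and 1 fell (0.25). Each family thus held changes of both signs. Adamts14, Adamts8, Adamtsl3, Timp4, Adam11 and Mmp16 kept their calls under all 13 alternatives that tested for any difference, and Adamts15 under 12. The number of genes called changed when single libraries were left out, which also leaves fewer libraries to test. The count of risen genes was 5, 3, 4, 3 and 5 without control 1, control 3, iSM KO 1, iSM KO 2 and iSM KO 3, and that of fallen genes was 4 without iSM KO 1 and 4 without iSM KO 2. Of genes with a fold change over 2, 1 rose without control 3 and 1 without iSM KO 2, and 2 fell without iSM KO 2.

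Marker genes of other cells also differed between the groups. The 10 adipocyte markers summed to 116 to 234 CPM in controls against 89.5 to 99.8 CPM in iSM KO aortas, and 6 of the 9 that were tested fell (2 by limma-voom). The median log2 fold change of the 9 was -2.80. Pnpla2, at 79.7 and 74.6 CPM on average, hardly differed (log2 fold change -0.097, FDR = 0.626). It made up most of the sum of control 1 and of every iSM KO library, so these sums hide part of the relative difference in the other markers. The 10 cardiomyocyte markers summed to 117 to 145 and 155 to 208 CPM, nearly all of it Ryr2 (127 and 180.3 CPM on average), the 1 of 4 tested markers that rose. The other 3, Myh6 (-0.88), Actc1 (-1.32) and Tnni3 (-0.24), had negative log2 fold changes, and the median of the 4 was -0.56. The 10 skeletal muscle markers summed to 3.35 to 4.58 and 2.44 to 3.2 CPM, with none of 2 tested past the FDR. Sums of endothelial markers (596 to 1150 and 340 to 880 CPM), fibroblast markers (748 to 923 and 812 to 846 CPM), macrophage markers (39.9 to 43.7 and 15.4 to 46.7 CPM), lymphocyte markers (0.866 to 1.72 and 1.37 to 1.67 CPM), neutrophil markers (0.494 to 0.755 and 0.411 to 0.544 CPM) and Schwann cell markers (69.5 to 74.7 and 59.6 to 70.6 CPM) overlapped between the groups. Single genes set some of these sums. Col15a1, at 485 and 623 CPM on average, made up most of the fibroblast sum, while the other 9 fibroblast markers had negative log2 fold changes (median of all 10 -0.68). Of these, 8 had an unadjusted p under 0.05, Clec3b fell in edgeR (-1.56, FDR = 0.0348), and DESeq2 called 3 and limma-voom 0. Pmp22, which is not restricted to nerve, made up 66.2 and 58.2 CPM of the Schwann cell sum with a log2 fold change of -0.19, while the other 4 tested had values of 0.13 to 0.52, none past the FDR. Trac, a T cell receptor gene and the 1 lymphocyte marker tested, rose from 0.0839 to 0.13 CPM to 0.745 to 0.908 CPM (log2 fold change 2.95, FDR = 0.00213), while Cd3e, Cd3d and Cd3g stood at 0.229 CPM or less in every library. Trac passed the filter on low counts through the iSM KO libraries only. All 10 endothelial and all 9 tested macrophage markers had negative log2 fold changes, with medians of -0.60 and -0.60, and none passed the FDR in edgeR. At an unadjusted p under 0.05 there were 1 and 2 of them, DESeq2 called 0 and 1, and limma-voom called 0 in both lists. Ly6g, which defines neutrophils, had no count in any library. The part of these cells in the results was not tested.

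**Figure D2:**
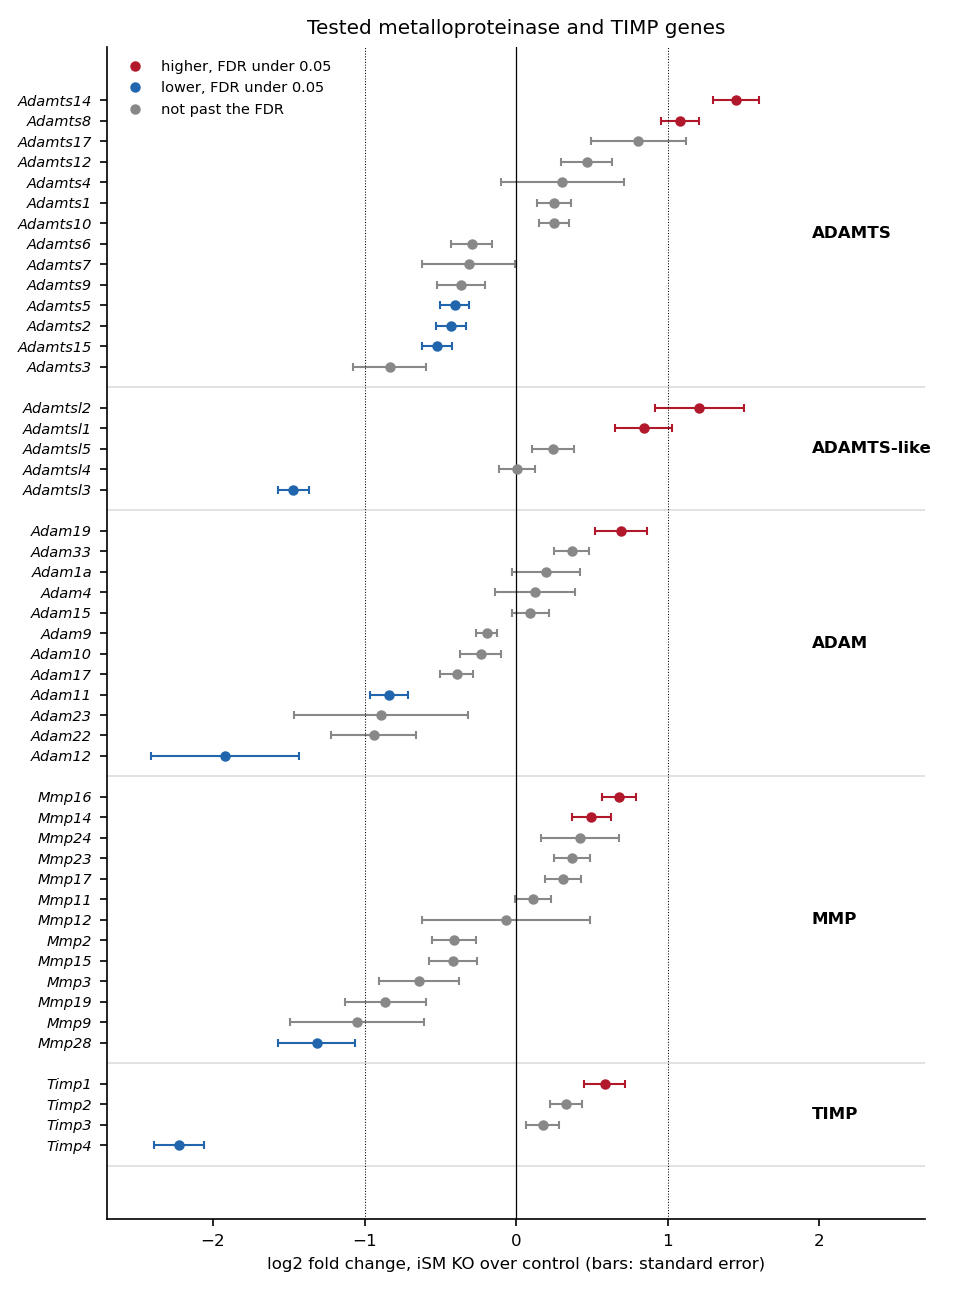
Log2 fold change (iSM KO over control, x axis) of the 48 tested genes by family, with bars of 1 standard error and dotted lines at a fold change of 2. The 8 risen and 8 fallen genes spread over all 5 families, from 1.45 for Adamts14 to -2.22 for Timp4.

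To show the control regions of the genes with the firmest changes, the 250 bases before the RefSeq start (GRCm38.p6) are given for the 3 of them that RefSeq's promoter table used here holds. They run 5′ to 3′ on the gene's own strand, with GC boxes (GGGCGG, or CCGCCC on the other strand), the site of Sp1-like factors, in capitals. The Adamts14 window lies on chr10:61273420-61273669, the Adamtsl3 window on chr7:82335444-82335693 and the Timp4 window on chr6:115252206-115252455.
Adamts14: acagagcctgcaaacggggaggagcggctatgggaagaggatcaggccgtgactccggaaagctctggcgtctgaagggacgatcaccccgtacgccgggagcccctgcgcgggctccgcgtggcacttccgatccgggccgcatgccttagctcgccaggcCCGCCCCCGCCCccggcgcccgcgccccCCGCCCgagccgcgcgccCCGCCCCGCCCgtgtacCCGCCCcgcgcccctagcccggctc
Adamtsl3: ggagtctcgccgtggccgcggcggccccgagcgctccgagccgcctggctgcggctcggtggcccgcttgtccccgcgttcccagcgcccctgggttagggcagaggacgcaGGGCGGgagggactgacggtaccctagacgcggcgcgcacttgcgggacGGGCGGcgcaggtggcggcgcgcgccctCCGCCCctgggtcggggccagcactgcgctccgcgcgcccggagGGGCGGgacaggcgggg
Timp4: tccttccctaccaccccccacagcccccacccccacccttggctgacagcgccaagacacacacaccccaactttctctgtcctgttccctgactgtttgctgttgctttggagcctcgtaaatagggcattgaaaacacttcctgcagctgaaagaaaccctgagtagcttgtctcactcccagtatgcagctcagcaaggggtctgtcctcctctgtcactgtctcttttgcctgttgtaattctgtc
Adamts14, which rose, and Adamtsl3, which fell, both have GC-rich windows, with 6 and 4 GC boxes and 35 and 39 CpG sites. The Timp4 window holds no GC box and 2 CpG sites. Over all 32851 promoter windows of this length, 32.7% held a GC box and the median was 6 CpG sites (quartiles 2 and 16). The shared letters of a risen and a fallen gene are a description only.

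The procollagen N-proteinases Adamts2, Adamts3 and Adamts14 remove the amino-terminal propeptide of fibrillar procollagens. Adamts14 (ENSMUSG00000059901, chromosome 10, 61197112 to 61273438, minus strand, GRCm38) counted 9.13, 10.5 and 10.4 CPM in controls 1 to 3 against 26.5, 33.6 and 22.3 CPM in iSM KO aortas 1 to 3. Every iSM KO library lay above every control (log2 fold change 1.45, SE 0.15, FDR = 0.000835). Adamts2, the main enzyme of this class, went from 110, 89.4 and 85.8 CPM in controls to 72.0, 70.0 and 69.5 CPM, so that the opposite order held. Adamts2 fell (log2 fold change -0.43, SE 0.10, FDR = 0.033), a call lost without control 1 (FDR = 0.0576), iSM KO 1 (0.0982), iSM KO 2 (0.136) or iSM KO 3 (0.0826). Adamts3, named here after its values were seen, was low at 2.08 to 3.36 CPM in controls against 1.32 to 1.67 CPM in iSM KO aortas (log2 fold change -0.83, FDR = 0.0759).

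Per kb of transcript, the sum of the 3 N-proteinases was 15.7 ± 1.603 in controls and 15.4 ± 1.07 in iSM KO aortas (SD, n = 3; exact two-sided permutation p = 0.8). Within this sum Adamts14 made up 10.04%, 13.7% and 13.7% in controls and 33.1%, 39.4% and 30.1% in iSM KO aortas, and Adamts2 86.0%, 82.8% and 80.5% and then 64.3%, 58.6% and 66.9%. The share of Adamts14 thus stood higher in all iSM KO libraries (exact permutation p = 0.1, the smallest that 3 against 3 can give, and 0.159 adjusted over 35 such sums, shares and ratios). Without the division by length, the difference in the share of Adamts14 was 18 percentage points instead of 21.7, an alternative chosen after the data were seen.

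**Figure D3:**
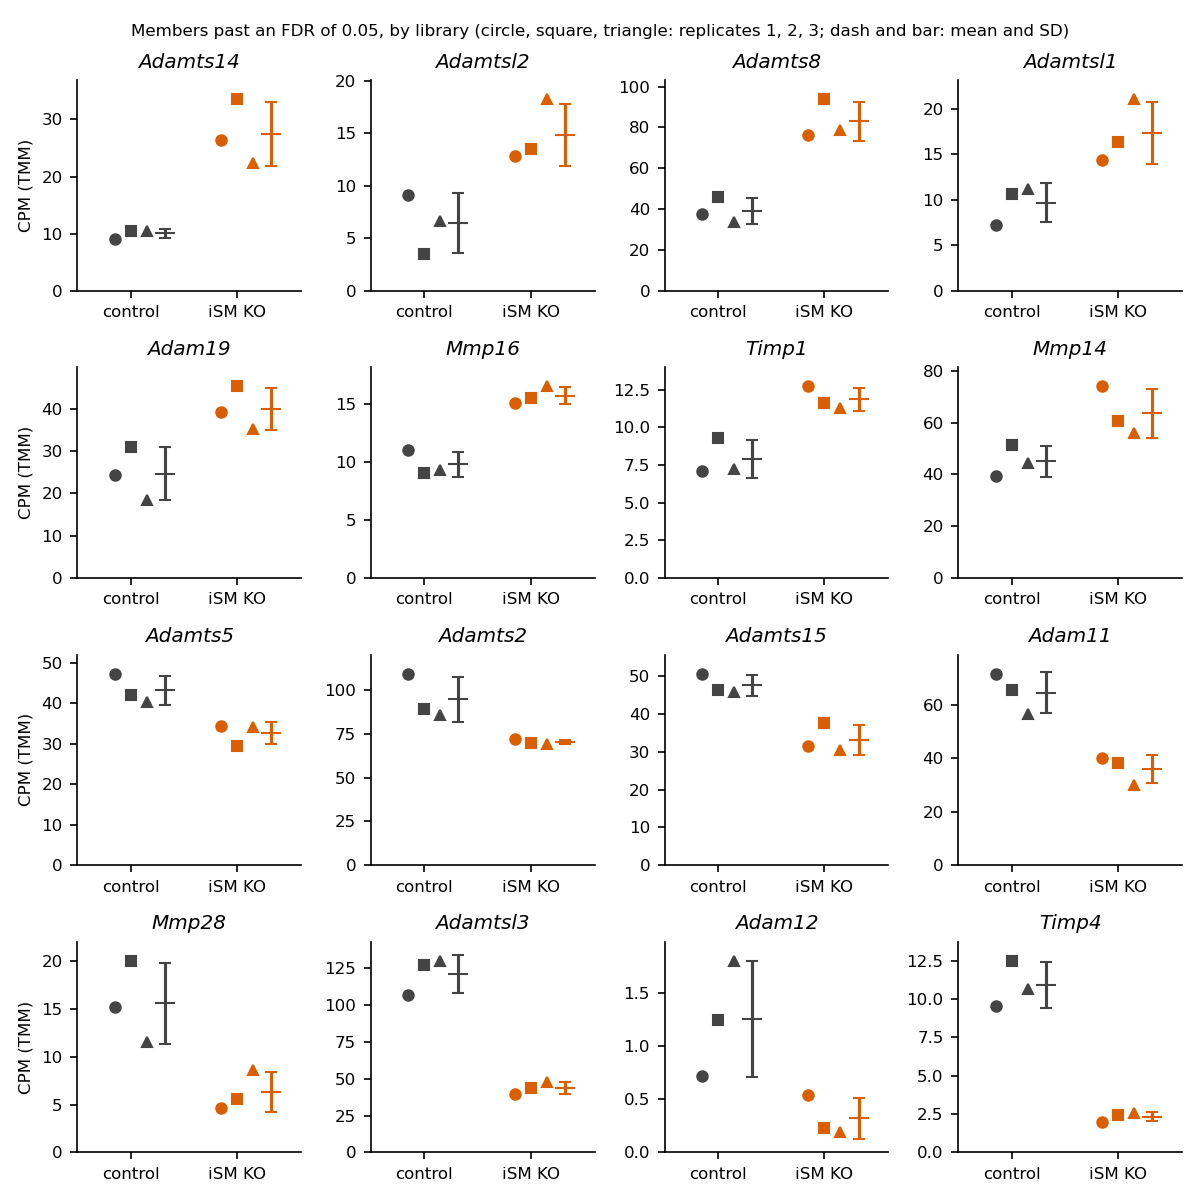
CPM of the 16 genes past an FDR of 0.05 in each control and iSM KO library, with the mean and SD of 3 libraries beside the points and a separate y axis from 0 for each gene. Adamts14 sits at 9.13 to 10.5 CPM in controls against 22.3 to 33.6 CPM in iSM KO aortas, and Timp4 at 9.55 to 12.5 and 1.99 to 2.57 CPM.

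The proteoglycanases cleave versican and aggrecan, which hold water in the vessel wall. Adamts8 (chromosome 9, 30942562 to 30963838, plus strand) counted 37.7, 46.0 and 33.7 CPM in controls against 76.3, 93.9 and 78.8 CPM in iSM KO aortas. Its groups stood far apart (log2 fold change 1.08, SE 0.13, FDR = 0.00139). An antisense gene, Gm29724, shares 10.6% of its exon bases. Without strand information in the counts the reads of both cannot be told apart in the shared part. Gm29724 stood at 1.501 ± 0.905 CPM in controls against 3.15 ± 0.416 CPM in iSM KO aortas, without overlap of the groups. The log2 fold change of Gm29724 was 1.05 (FDR = 0.138), and its part in the Adamts8 result was not tested. Adamts15 (chromosome 9, 30899155 to 30922452, minus strand), the neighbour of Adamts8, starts only 20109 bp away and is transcribed in the opposite direction. Adamts15 counted 50.7, 46.3 and 45.8 CPM in controls against 31.6, 37.6 and 30.3 CPM in iSM KO aortas, lower in every iSM KO library. It fell by 0.52 on the log2 scale (SE 0.10, FDR = 0.0138), a call lost without iSM KO 1 (FDR = 0.0643).

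The head-to-head pair Adamts8 and Adamts15 thus moved in opposite directions. The log2 ratio of Adamts8 to Adamts15 per kb was 0.282, 0.697 and 0.267 in controls and 1.98, 2.03 and 2.08 in iSM KO aortas (exact permutation p = 0.1, the smallest possible, 0.159 adjusted). Adamts8 made up 12.9% ± 2.19 of all proteoglycanase expression in controls and 22.3% ± 1.74 in iSM KO aortas, and Adamts15 9.64% ± 1.29 and 5.48% ± 0.576 (SD, n = 3). Adamts1 remained the main enzyme with 67.4% ± 2.75 and 65.6% ± 2.48 (exact permutation p = 0.5). The class as a whole stood at 76.9, 85.9 and 88.6 CPM per kb in controls and 92.1, 109 and 106 in iSM KO aortas, without overlap. Adamts5, an aggrecanase that lies 53059 bp from Adamts1 on chromosome 16, fell from 47.3, 41.9 and 40.3 CPM to 34.5, 29.4 and 34.0 CPM (log2 fold change -0.40, SE 0.10, FDR = 0.0364). This call was lost without control 1 (FDR = 0.108), iSM KO 1 (0.0768), iSM KO 2 (0.169) or iSM KO 3 (0.0665). Adamts1 itself had a log2 fold change of 0.25 (SE 0.11, FDR = 0.234), and the fibrillin-linked Adamts10 one of 0.25 (SE 0.10, FDR = 0.186).

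The ADAMTS-like genes also moved in both directions. Adamtsl3 (ENSMUSG00000070469, chromosome 7, 82335694 to 82614450, plus strand), a secreted glycoprotein of the matrix, counted 107, 127 and 130 CPM in controls against 39.9, 43.9 and 47.5 CPM in iSM KO aortas. All iSM KO libraries lay far below all controls (log2 fold change -1.47, SE 0.10, FDR = 9.3e-05). Adamtsl2, which binds fibrillin and latent TGF-β binding protein, counted 9.13, 3.51 and 6.67 CPM in controls against 12.8, 13.4 and 18.2 CPM in iSM KO aortas. It rose (log2 fold change 1.21, SE 0.30, FDR = 0.041), without overlap of the groups. The call was lost without control 3 (FDR = 0.11), iSM KO 1 (0.0743), iSM KO 2 (0.103) or iSM KO 3 (0.101).

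Adamtsl1, the closest relative of Adamtsl3, counted 7.22, 10.6 and 11.2 CPM in controls against 14.4, 16.4 and 21.0 CPM in iSM KO aortas, again without overlap. It rose by 0.84 on the log2 scale (SE 0.19, FDR = 0.0302), a call lost without control 1 (FDR = 0.0637), control 3 (0.0544), iSM KO 2 (0.0887) or iSM KO 3 (0.0757). Adamtsl5 (log2 fold change 0.24, FDR = 0.341) and the microfibril-binding Adamtsl4 (0.0059, FDR = 0.983) did not pass the test. Summed per kb, the 5 genes stood at 74.1 ± 5.76 in controls and 75.5 ± 11.3 in iSM KO aortas (SD, n = 3; exact permutation p = 0.9). Adamtsl3 provided 22.7% ± 3.85 of that sum in controls and 8.06% ± 0.626 in iSM KO aortas, and Adamtsl5 63.5% ± 3.75 and 74.0% ± 1.68.

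**Figure D4:**
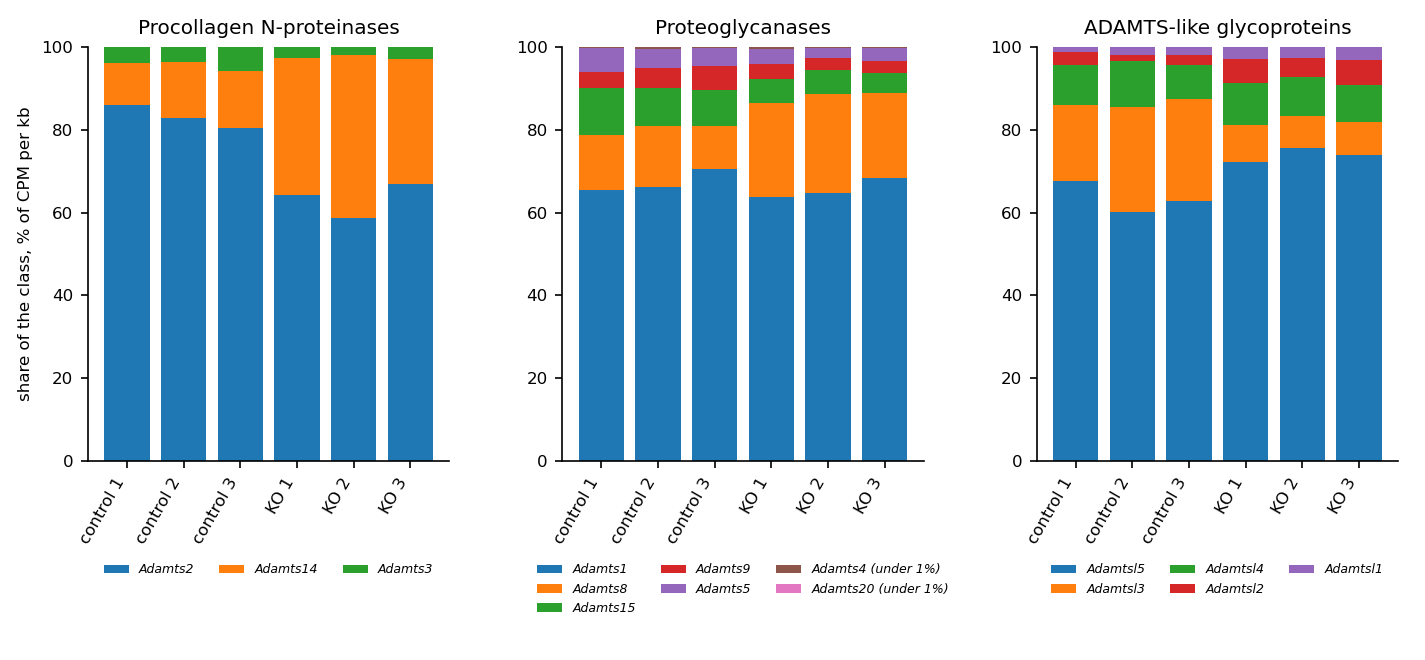
Share of each gene in the expression of its class (stacked bars, percent of CPM per kb) in each of the 6 libraries, for procollagen N-proteinases, proteoglycanases and ADAMTS-like glycoproteins. Adamts14 takes 10.04% to 13.7% of the first class in controls and 30.1% to 39.4% in iSM KO aortas, Adamts8 grows at the side of a shrinking Adamts15, and Adamtsl3 shrinks from 18.3% to 25.4% to 7.61% to 8.77%.

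Of 5 tested membrane-type MMPs, which act at the cell surface, 2 rose. Mmp16 (MT3-MMP) counted 11.1, 9.06 and 9.35 CPM in controls against 15.1, 15.6 and 16.5 CPM in iSM KO aortas, with a wide gap for its small spread (log2 fold change 0.68, SE 0.11, FDR = 0.00719). Mmp14 (MT1-MMP), the activator of pro-MMP2, counted 39.3, 51.3 and 44.5 CPM and then 74.0, 60.4 and 56.1 CPM. Its groups did not overlap, but its call stood at the limit (log2 fold change 0.50, SE 0.13, FDR = 0.0489) and was lost without control 1 (FDR = 0.139), control 3 (0.132), iSM KO 1 (0.164) or iSM KO 2 (0.128). Mmp17 (MT4-MMP) had a log2 fold change of 0.31 (FDR = 0.165) and Mmp15, named after its values were seen, one of -0.42 (FDR = 0.159). The 6 membrane-type genes summed to 30.7, 32.9 and 27.4 CPM per kb in controls and 43.7, 38.5 and 38.2 in iSM KO aortas (exact permutation p = 0.1, 0.159 adjusted). Mmp2, the gelatinase that Mmp14 activates, had a log2 fold change of -0.41 (SE 0.14, FDR = 0.135), and Mmp9, the other gelatinase, one of -1.05 (SE 0.44, FDR = 0.204) at CPM under 1.01. Mmp23, the highest MMP per kb, had one of 0.37 (SE 0.12, FDR = 0.106).

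Mmp28 (epilysin, chromosome 11, 83440768 to 83463071, minus strand) fell most among the MMPs past the test. It counted 15.2, 20.01 and 11.5 CPM in controls against 4.64, 5.59 and 8.62 CPM in iSM KO aortas, without overlap (log2 fold change -1.32, SE 0.26, FDR = 0.0159). The call was lost without iSM KO 1 (FDR = 0.0533) or iSM KO 2 (0.0783). The gene 1700020L24Rik on the opposite strand shares 12.0% of the exon bases of Mmp28 and also fell (log2 fold change -1.26, FDR = 0.0387), from 3.17 ± 0.851 to 1.33 ± 0.411 CPM (SD, n = 3). Without strand information their reads cannot be told apart in the shared part.

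Of the ADAMs, Adam11 had the smallest FDR. It has no active protease site and is best known as a synaptic protein of neurons. Adam11 counted 71.8, 65.6 and 56.5 CPM in controls against 40.0, 38.3 and 30.1 CPM in iSM KO aortas, lower in every iSM KO library (log2 fold change -0.84, SE 0.13, FDR = 0.00501). The other ADAMs of this kind, Adam22 and Adam23, named after their values were seen, had log2 fold changes of -0.94 (FDR = 0.0834) and -0.89 (FDR = 0.403) at far lower levels. The Schwann and nerve markers are given above, and their part in this result was not tested.

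Adam19 (meltrin beta), a sheddase of neuregulins, counted 24.4, 30.9 and 18.5 CPM in controls against 39.2, 45.2 and 35.2 CPM in iSM KO aortas. It rose by 0.69 on the log2 scale without overlap of the groups (SE 0.17, FDR = 0.0436), a call lost without control 1 (FDR = 0.125), control 3 (0.0862), iSM KO 1 (0.108) or iSM KO 2 (0.177). The antisense genes Gm16033 and Gm16034 share 8.25% and 6.75% of the exon bases of Adam19. Without strand information their reads cannot be told apart in the shared parts. Adam12 (meltrin alpha), the close relative of Adam19, had 24, 48 and 43 counts in controls and 22, 8 and 7 in iSM KO aortas. These were 0.716, 1.25 and 1.80 CPM and 0.54, 0.229 and 0.192 CPM. The gene thus passed the filter on low counts through the controls only. Adam12 fell (log2 fold change -1.92, SE 0.49, FDR = 0.0459), but the call was lost in 7 of 13 alternatives, among them without control 2 (FDR = 0.0826), control 3 (0.135), iSM KO 2 (0.175) or iSM KO 3 (0.111). Stretches of its transcript match other genes at 95.3% identity or more, so that its few reads may be shared with them. The general sheddases Adam10 and Adam17, also named after their values were seen, had log2 fold changes of -0.23 (FDR = 0.348) and -0.39 (FDR = 0.0669), and Adam15 and Adam9, the highest ADAMs per kb, 0.094 (FDR = 0.694) and -0.19 (FDR = 0.137). All ADAMs together summed to 103 ± 6.36 CPM per kb in controls and 98.6 ± 3.18 in iSM KO aortas (exact permutation p = 0.4).

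The TIMPs were led in size of change by their scarcest member. Timp4 (ENSMUSG00000030317, chromosome 6, 115241892 to 115252205, minus strand) counted 9.55, 12.5 and 10.7 CPM in controls against 1.99, 2.46 and 2.57 CPM in iSM KO aortas. It fell the most of the 48 tested genes (log2 fold change -2.22, SE 0.17, FDR = 0.000131). The outer layer of the aortas, the adventitia, had been taken off before RNA extraction. Timp4 is also expressed in fat, and the adipocyte markers differed between the groups in the same direction, as given above. Adipoq stood at 1.40, 11.1 and 4.61 CPM in controls against 0.319, 0.172 and 0.63 CPM in iSM KO aortas. Cidec stood at 1.02, 17.9 and 5.83 CPM against 0.638, 0.43 and 1.12 CPM in the same order. Fabp4 counted 19.9, 54.6 and 52.4 CPM in controls against 5.82, 5.85 and 7.97 CPM in iSM KO aortas. The part of fat in this result was not tested.

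Timp1, the TIMP most readily induced by injury and cytokines, counted 7.11, 9.32 and 7.25 CPM in controls against 12.7, 11.6 and 11.3 CPM in iSM KO aortas, without overlap. It rose by 0.58 on the log2 scale (SE 0.13, FDR = 0.0319), a call lost without control 1 (FDR = 0.0948), control 3 (0.0971), iSM KO 1 (0.126), iSM KO 2 (0.114) or iSM KO 3 (0.0565). Timp2 had a log2 fold change of 0.33 (SE 0.11, FDR = 0.104) and Timp3 one of 0.17 (SE 0.11, FDR = 0.381). Because Timp3 and Timp2 are so abundant, Timp4 made up only 0.581% ± 0.112 of TIMP expression per kb in controls and 0.104% ± 0.00988 in iSM KO aortas. The 4 TIMPs summed to 384, 346 and 307 CPM per kb in controls and 389, 412 and 421 in iSM KO aortas, without overlap (exact permutation p = 0.1, 0.159 adjusted).

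The genes that switch these enzymes on were mixed. Of 8 tested genes on a list of activators of protease precursors, 2 rose and 1 fell (median log2 fold change 0.0041). The list also holds Plaur and Bsg, which are not activators themselves. Over all genes tested, 4.26% rose and 3.30% fell, the shares to set beside the counts of this list and those below. The lists are short, so these counts are descriptions only. Plat, the tissue-type plasminogen activator, counted 63.2, 56.6 and 47.4 CPM in controls against 133, 118 and 123 CPM in iSM KO aortas, with no overlap (log2 fold change 1.16, SE 0.11, FDR = 0.000474). The proprotein convertases, which cut the prodomains of ADAMs, ADAMTSs and membrane-type MMPs, went in both directions. Pcsk5 rose (log2 fold change 0.65, FDR = 0.00897), Pcsk6 fell (-0.93, FDR = 0.00105) and Furin had a log2 fold change of 0.02 (FDR = 0.928). Plasminogen itself, Plg, was not tested at 0.465 CPM or less.

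Of 8 tested genes for other inhibitors and clearance, 3 rose in edgeR (median 0.39), and 0 fell in edgeR, by unadjusted p, in DESeq2 or in limma-voom. The risen genes were the serine protease inhibitor Serpine2 (log2 fold change 0.38), the cysteine protease inhibitor Cst3 (0.54) and Thsd4 (0.43), with FDRs of 0.0252, 0.0252 and 0.0182. Thsd4 is on this list although it is an ADAMTS-like protein that promotes fibrillin microfibrils rather than an inhibitor. The membrane-bound MMP inhibitor Reck had a log2 fold change of 0.02 (FDR = 0.938), and Lrp1, the receptor that clears many of these enzymes, one of 0.06 (FDR = 0.711). Of 13 tested matrix proteases and their helpers outside the families, 3 fell (median -0.29). None rose in edgeR, DESeq2 or limma-voom, and 1 had a positive log2 fold change at an unadjusted p under 0.05. These were the serine proteases Htra1 (-0.29, FDR = 0.049), Htra3 (-0.80, FDR = 0.001) and Fap (-1.45, FDR = 0.0355). Fap, the fibroblast activation protein, was low at 1.48 to 3.16 CPM in controls against 0.767 to 1.18 CPM in iSM KO aortas. Its call was lost without control 1 (FDR = 0.107), control 3 (0.107), iSM KO 1 (0.118), iSM KO 2 (0.0745) or iSM KO 3 (0.0892). Genes of these lists and of the substrates that had no fold change over 2 were chosen for naming after their values were seen.

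Of 17 tested matrix substrates, 2 rose and 3 fell (median -0.35). Aggrecan (Acan), a target of the proteoglycanases, counted 73.0, 83.1 and 83.7 CPM in controls against 29.4, 35.2 and 36.5 CPM in iSM KO aortas (log2 fold change -1.25, SE 0.10, FDR = 0.000206). Comp, a cartilage matrix protein that also belongs to the arterial wall, fell from 17.0 to 20.9 CPM to 4.30 to 9.03 CPM (-1.47, SE 0.23, FDR = 0.00571). Col3a1, whose procollagen the N-proteinases trim, fell by 1.13 on the log2 scale (SE 0.10, FDR = 0.000329). The basement membrane collagens Col4a1 (0.50, FDR = 0.0353) and Col4a2 (0.63, FDR = 0.0139) rose, while versican (Vcan), the main proteoglycan of the wall, had a log2 fold change of 0.38 (FDR = 0.183) and elastin (Eln) one of 0.10 (FDR = 0.831).

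On the shedding side, none of the 10 tested partners of ADAM10 and ADAM17, such as the iRhoms Rhbdf1 and Rhbdf2, passed the FDR in edgeR (median 0.16), where 1 had a positive and 1 a negative log2 fold change at an unadjusted p under 0.05 and DESeq2 called 1 and limma-voom 0. Of 15 tested shed ligands and receptors, 1 rose and 1 fell (median -0.21). Tnfrsf1b, a TNF receptor released by ADAM17, fell from 10.3, 12.8 and 8.43 CPM to 3.02, 4.50 and 5.26 CPM (log2 fold change -1.31, SE 0.22, FDR = 0.00892). Cdh2 (N-cadherin), a substrate of ADAM10, rose from 1.58, 0.833 and 0.923 CPM to 2.36, 3.55 and 3.40 CPM (1.47, SE 0.30, FDR = 0.02). The Cdh2 call was lost without control 3 (FDR = 0.0732), iSM KO 2 (0.091) or iSM KO 3 (0.0515).

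**Figure D5:**
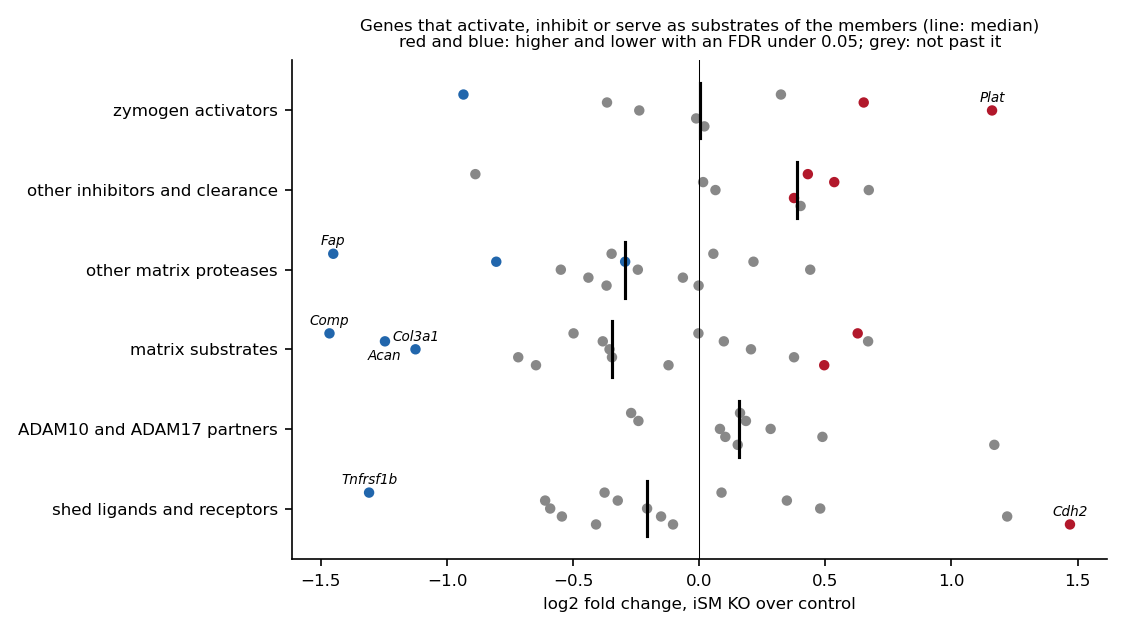
Log2 fold change (iSM KO over control, x axis) of each tested gene of 6 lists that activate, inhibit, work beside or are cut by the families, with the median of each list as a black line. Red and blue points passed an FDR of 0.05 upwards and downwards, and names mark those with a fold change over 2, from Cdh2 at 1.47 to Comp at -1.47.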

How the data were processed

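Aortas of 3 control and 3 Prdm16 iSM KO mice were sequenced in paired-end reads of 150 bp after removal of the adventitia and of ribosomal RNA. The authors mapped reads with Illumina DRAGEN to the Ensembl mouse reference (release 101, mm10), and deposited estimated counts per gene, neither rounded nor normalized (10.9% to 12.2% of values in a library were not whole). How reads matching several genes were shared, and whether strand was used, is not given in the sources used here.

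Counts were rounded. A gene was kept where every library of the control or the iSM KO group had more than 10 counts. The test was edgeR's (version 4.0.16, R 4.3.3) quasi-likelihood test with TMM factors, glmQLFit and glmQLFTest, without covariates and with Benjamini-Hochberg adjustment. Per the study's methods the samples came from 3 mice in each group, so the spread is that between mice. Positions, lengths and overlaps come from GENCODE M21 (GRCm38), near copies from blastn 2.17.0, promoters from RefSeq (53 of 84 genes matched) and exact permutation tests from SciPy 1.17.1. Genes named are those past the FDR, all TIMPs, the 3 highest genes per kb of each other family, genes with a fold change over 2, and list genes with both. The genes and lists described were chosen with earlier results of these data known, and the study itself had picked Adamts14, Adamts8 and Adamtsl3 from these libraries. The paper then measured its selected genes by qRT-PCR and reports that the differences held for most of them. Alternatives were DESeq2 1.42.0, limma-voom (limma 3.58.1), glmTreat at a fold of 2, other scaling and filters, the replicate number as a block, and each library left out. On simulated counts, more false calls passed the FDR than its nominal level with every tool run. Protein sequences were not analysed here.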

Additional observations from a re-analysis of the deposited data

How the results depend on the processing

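Against 8 risen and 8 fallen genes, each library left out in turn gave 3 to 8 risen and 4 to 9 fallen, and, with a fold change over 2, 1 to 3 risen (3 with all libraries) and 2 to 4 fallen (4). The counts were 5, 3, 4, 3 and 5 risen without control 1, control 3, iSM KO 1, iSM KO 2 and iSM KO 3, and 4 fallen without iSM KO 1 or iSM KO 2. edgeR's glmTreat at a fold of 2 left 0 risen genes (1 at an unadjusted p under 0.05) and 2 fallen. The sample labels state no pairing. Same-numbered deviations from the group means showed no positive correlation (-0.132, -0.046 and -0.107), which cannot exclude that samples were paired. With the replicate number as a block 6 genes rose and 5 fell. DESeq2 and no filter gave 9 and 10 risen and 11 and 12 fallen genes. The MMP median was -0.37 with limma-voom and ran from -0.50 (without iSM KO 3) to 0.098 (without iSM KO 1) with 1 library left out, so its sign is not settled. The ADAMTS median ran from -0.13 (without control 1) to -0.0049, and that of the activators from -0.062 to 0.20 (without control 2). With 1 library left out, Adam15 ran from -0.0040 (without control 3; -0.0015 without iSM KO 3) to 0.22, and Adamtsl4 from -0.105 (without control 3; -0.028 and -0.041 without iSM KO 2 and 3) to 0.081. Of the other values of single genes and shares, 404 kept their direction and side of the threshold, 56 lost the threshold, 3 passed it and 1 moved. The cause of these changes was not tested. Depth limits the 36 genes with few or no counts, and the planned search for zinc-binding motifs in proteins was not run.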

Other observations

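Adam5, a gene best known from the testis, was left out of the test for its low counts and was noticed after its values were seen. It had 21, 15 and 8 counts in controls 1 to 3 and 2, 3 and 1 in iSM KO aortas 1 to 3, or 0.627, 0.39 and 0.335 CPM and 0.049, 0.086 and 0.027 CPM, with no overlap. Without the filter its log2 fold change was -2.99 (edgeR FDR = 0.0117). Adam5 lies in a row with Adam3 and Adam32 on the same strand of chromosome 8, and Adam9 lies 806 bp from Adam32. Adam3 had no count in any library, Adam32 had 12 at most, and Adam9 had a log2 fold change of -0.19 (FDR = 0.137).

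The iSM KO libraries were more alike than the controls. Chi-square values per degree of freedom over the tested genes were 12.2 to 19.4 between iSM KO libraries, 47.8 to 70.5 between controls and 51.8 to 81.5 between the groups.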
